A study of Mus musculus with 16 samples.

Results

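Small nucleolar RNA (snoRNA) genes were examined in RNAseq data from mouse cortical bone. They were taken as the features whose symbol begins with Snord (box C/D snoRNAs) or Snora (box H/ACA snoRNAs) and were selected on their measured mean, which had to reach 0.5 RPKM over the 16 mice. The files listed 103 such features, and 94 of them reached the minimum, 62 of box C/D and 32 of box H/ACA, among 16973 features at that level and 36829 in all.

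The mice were 11-week-old C57Bl/6 females (C57Bl/6J in the study's methods), of which 8 underwent 7 days of hindlimb unloading (HLU) and 8 bore weight normally (Control). In HLU the tail is held by a harness so that the hind limbs do not touch the cage. RNA came from femoral cortical bone whose ends had been cut off and whose marrow had been flushed out, and each mouse gave 1 library. The harness was fitted under isoflurane anesthesia and the HLU mice lived in a cage built for it, so anesthesia, harness and cage cannot be told apart from unloading. No transgene was named for either group.

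SnoRNAs are short nuclear RNAs that guide chemical modification of ribosomal RNA in the nucleolus, the place where ribosomes are made. Box C/D snoRNAs carry a C box and a D box, bind fibrillarin with its partner proteins and direct methylation of riboses, whereas box H/ACA snoRNAs end in an ACA box, bind dyskerin with its partners and direct the change of uridine to pseudouridine. In mammals most of them lie in introns of other genes, many of which encode ribosomal proteins or translation factors, and are released when the spliced intron is trimmed. Mature snoRNAs have no poly(A) tail, and the library kit used here selects RNA with such a tail. The share of each value that came from mature snoRNA, and not from unspliced or retained introns of the host, was not tested.

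Sequences are given for the members on which the results turn, as listed by GENCODE M21 on GRCm38. In box C/D members the capitals mark TGATGA within the first 18 bases (the C box) and CTGA within the last 14 (the D box), and in box H/ACA members they mark ACA with 3 bases after it. The first pair is Snord15a, with the second highest mean RPKM of box C/D, and Snora41, with the highest of box H/ACA.
Snord15a, chr7:99482785-99482932, minus strand: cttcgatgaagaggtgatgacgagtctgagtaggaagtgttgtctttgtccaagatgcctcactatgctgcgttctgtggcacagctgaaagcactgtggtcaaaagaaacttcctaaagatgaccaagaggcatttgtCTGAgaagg
Snora41, chr1:63179004-63179135, plus strand: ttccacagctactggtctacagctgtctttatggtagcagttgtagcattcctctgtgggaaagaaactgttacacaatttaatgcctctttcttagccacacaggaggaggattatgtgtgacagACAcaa
The next set shows members with lower values after HLU, beginning with Snord14e, a member of the U14 family whose groups did not overlap in RPKM as deposited.
Snord14e, chr9:40804748-40804837, plus strand: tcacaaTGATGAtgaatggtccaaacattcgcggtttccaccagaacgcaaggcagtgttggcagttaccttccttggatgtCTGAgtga
Snord65, chr11:62604515-62604586, plus strand: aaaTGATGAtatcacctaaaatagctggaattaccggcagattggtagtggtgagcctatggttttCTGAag
Snord12, chr2:167065276-167065365, plus strand: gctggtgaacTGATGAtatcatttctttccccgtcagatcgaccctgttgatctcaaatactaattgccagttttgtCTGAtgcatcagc
Snord4a, chr11:78181686-78181756, minus strand: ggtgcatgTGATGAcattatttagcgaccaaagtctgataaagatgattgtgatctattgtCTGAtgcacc
Snora23, chr7:110046364-110046547, plus strand: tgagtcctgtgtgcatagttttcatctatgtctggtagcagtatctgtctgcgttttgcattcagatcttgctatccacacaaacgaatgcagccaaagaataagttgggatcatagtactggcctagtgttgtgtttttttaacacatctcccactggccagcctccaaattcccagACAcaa
Snora75, chr1:86351169-86351301, minus strand: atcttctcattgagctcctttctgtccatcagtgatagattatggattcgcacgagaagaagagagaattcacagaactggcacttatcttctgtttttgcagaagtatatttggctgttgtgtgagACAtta
The last set shows members that varied most closely with their host gene (Snora69, Snord34) and one that stood apart in 5 libraries (Snora21).
Snora69, chrX:37082912-37083042, minus strand: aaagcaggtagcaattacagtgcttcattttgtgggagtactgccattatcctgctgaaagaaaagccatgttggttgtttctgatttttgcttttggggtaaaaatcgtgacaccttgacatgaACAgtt
Snord34, chr7:45126601-45126670, minus strand: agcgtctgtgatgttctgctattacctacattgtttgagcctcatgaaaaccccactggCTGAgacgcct
Snora21, chr11:97781639-97781775, minus strand: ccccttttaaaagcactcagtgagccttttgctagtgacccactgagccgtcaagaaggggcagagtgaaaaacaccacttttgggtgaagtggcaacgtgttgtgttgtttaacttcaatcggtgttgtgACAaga

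The boxes were searched on the printed strand only. The C box letters were found in 41 of the 62 box C/D members and the D box letters in 57, whereas neither was found in any of the 32 box H/ACA members within the same windows. ACA stood 3 bases before the end in 27 of the 32 box H/ACA members and in no box C/D member. Over all 1516 snoRNA sequences of the annotation the shares were 21.6% for TGATGA, 30.9% for CTGA and 18.3% for ACA in these windows. Snord34 holds tgatgt in place of the C box letters, and in Snord15a tgatga ends beyond the window, so only their D box is in capitals. Box C/D members were 64 to 238 bases long (median 77.5) and box H/ACA members 121 to 205 bases (median 132.5).

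By position in GENCODE M21, 92 of the 94 members lay inside an intron of another gene on the same strand. The exceptions were Snord104 and Snora17. The host was a protein-coding gene for 69 members and a noncoding RNA gene for 23. Ribosomal protein genes hosted 30 members, and genes named as translation elongation or initiation factors hosted 6. For 85 members the host itself had a mean of at least 0.5 RPKM, which gave 61 different hosts. An annotated exon of another gene, often a form of the host that keeps the intron, overlapped 49 members on the same strand and 5 on the opposite strand, and reads there cannot be assigned to 1 gene alone. Of the 94 members, 11 had another annotated snoRNA of at least 95% identical sequence, among them Snora41 (97.7%) and Snora21 (97.8%), so their reads could have been shared with the copy.

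RPKM scales the reads on a feature to its length in kilobases and to the size of the library, and levels are compared between members on this scale, per length. The libraries rested on 7067512 to 21363584 reads as divisor, and 6411884 to 18377256 reads fell on listed features. Members held 4680 to 13393 reads per library. The mean was at least 100 reads for 21 members, and for 12 members it was under 10, so single values of the latter are coarse. A count of 0 on a 70-base member allows up to 3 reads, which corresponds to 2.01 to 6.06 RPKM depending on the library. Markers of cortical bone cells were present, since all 10 osteocyte and osteoblast markers passed the minimum, with summed values of 769.6 to 1767 RPKM in Control and 1025 to 2202 RPKM in HLU. Blood cell markers were also high, with 7 granulocyte markers summing to between 12346 and 44250 RPKM over the 16 mice.

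In 5 libraries, Control 1, Control 2, HLU 1, HLU 2 and HLU 3, Snora21 stood apart. It was at 109.0 to 138.0 RPKM in these 5 and at 15.04 to 33.6 RPKM in the other 11, and its host Rpl23, a ribosomal protein gene, was at 58.8 to 83.0 RPKM and at 23.4 to 44.0 RPKM. The ratio of Snora21 to Rpl23 was 1.41 to 2.01 in the 5 and 0.473 to 0.813 in the 11. Since the libraries form clusters, no r over all 16 is given. Within the 11, r was 0.86 and rho 0.81 (n = 11, permutation p = 0.00193 and 0.00635), and r was 0.84 without the 2 mice farthest from the median of Rpl23. Snord35b was also high in the 5 libraries, at 932.6 to 1244 RPKM, against 459.4 to 868.0 RPKM in the other 11. The labels give no batch for these libraries, and both groups have some of them. The set of 5 was picked on these values, and results are given without it where they rest on it.

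The level of the members spanned 3 orders of magnitude. Medians of the mean RPKM were 26.1 for box C/D and 20.5 for box H/ACA members, whereas the median of all features tested was 4.37. Summed over members, box C/D held 67.5% of the RPKM. The 5 highest members made up 51.5% of the box C/D sum and 69.0% of the box H/ACA sum, so a few members carried most of the signal in both boxes.

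**Figure D1:**
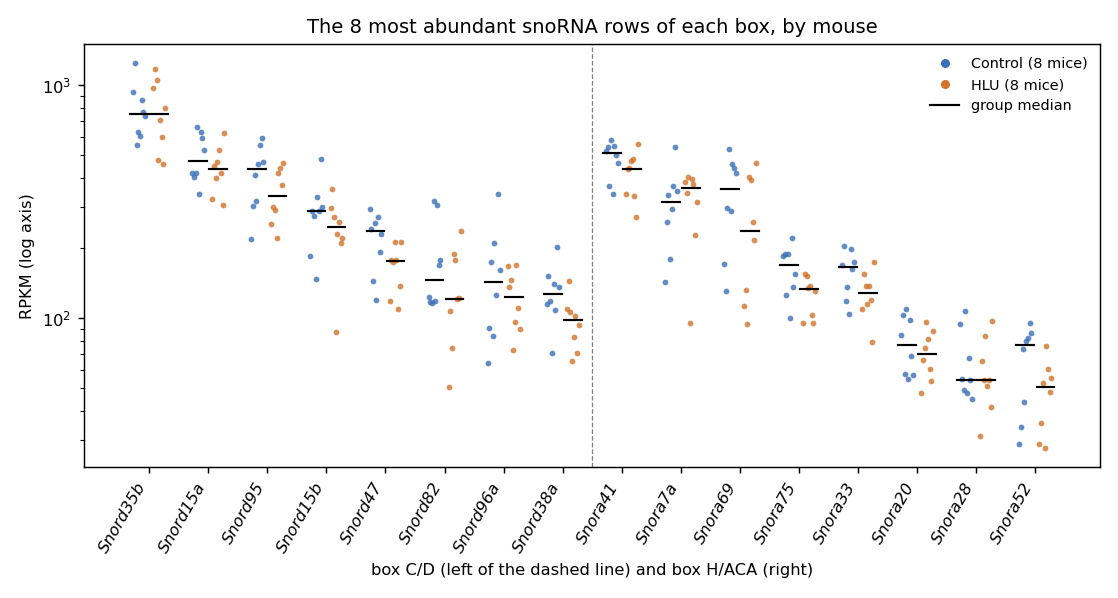
RPKM (log axis) of the 8 most abundant box C/D and the 8 most abundant box H/ACA snoRNAs in each of 8 Control and 8 HLU mice, with a bar at each group's median. Snord35b leads box C/D with a mean of 786.5 RPKM and Snora41 leads box H/ACA with 451.2 RPKM, and the groups overlap for all 16 snoRNAs.

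Snord35b had the highest level. Its values ran from 556.1 to 1244 RPKM in Control (median 750.8) and from 459.4 to 1173 RPKM in HLU (median 753.9). The groups overlapped almost completely, with a log2 fold change (HLU minus Control) of -0.05 ± 0.22 (SE, n = 8 per group) and an exact permutation p of 0.811. Snord15a, a U15 snoRNA in the ribosomal protein gene Rps3, followed with 342.5 to 662.7 RPKM in Control (median 474.2) and 305.6 to 626.7 RPKM in HLU (median 436.0). Its partner Snord15b, in another intron of Rps3, had a mean of 264.6 RPKM. Snord95 in Gnb2l1 (now Rack1), which codes for a scaffold protein of the small ribosomal subunit, had a mean of 381.3 RPKM. The next box C/D members were Snord47 in the noncoding Gas5 (192.1), Snord82 in Ncl, the nucleolin gene (158.0), Snord96a in Gnb2l1 (139.9) and Snord38a (113.6 RPKM).

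Among box H/ACA members, Snora41 in the elongation factor gene Eef1b2 ran from 341.9 to 582.0 RPKM in Control (median 512.3) and from 270.8 to 558.8 RPKM in HLU (median 438.6). It was the steadiest of the members with at least 100 reads, with a coefficient of variation of 20.9% over the 16 mice and a highest value 2.15 times the lowest. Snora7a in Rpl32 followed with a mean of 314.0 RPKM, and its median was higher in HLU (362.3) than in Control (316.6), although its lowest value was also in HLU (95.2). Snora69 in Rpl39 had a mean of 301.6 RPKM and ranged from 94.8 to 534.4 RPKM. The remaining 5 of the leading members were Snora75 in Ncl (144.2), Snora33 in Rps12 (143.6), Snora20 in Tcp1 (75.1), Snora28 in Eif5 (62.4) and Snora52 in Rplp2 (56.9 RPKM).

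At the other end, the member just inside the minimum was Snord68 in box C/D (0.835 RPKM, a mean of 1.12 reads) and Snora36b in box H/ACA (2.47 RPKM). Just outside were Snord55 (0.337 RPKM) and Snora78 (0.107 RPKM). Of the 9 features below the minimum, 4 (Snord118, Snord64, Snord107 and Snora35) were listed at 0 in all 16 mice. Snord118 is the U8 snoRNA, which acts in the processing of ribosomal RNA. Other small nuclear RNAs were partly in the same range of levels. The small Cajal body RNAs (Scarna) had 7 of 9 listed features at the minimum or above, with a median of 3.06 RPKM. The RNA of ribonuclease MRP (Rmrp), that of ribonuclease P (Rpph1), telomerase RNA (Terc) and the Y RNAs Rny1 and Rny3 were all below the minimum.

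The question of the main comparison was whether snoRNA abundance differed between HLU and Control bone. Most members had lower values after HLU. Of the 94 members, 82 (87.2%) had a negative log2 fold change, against 67.9% of all features tested. The median over members was -0.26, and 13 were lower at an unadjusted p under 0.05 with a change of at least 1.2-fold, whereas 0 were higher. Over all 16973 features tested by limma, 4.76% were lower and 1.11% were higher by the same rule, and the median log2 fold change was -0.10. By box, 11 of 62 box C/D members were lower (median log2 fold change -0.26) and 2 of 32 box H/ACA members (median -0.27). No member passed an adjusted p under 0.1. With limma the lowest adjusted p of a member was 0.744 and that of any feature 0.256, while 13 members had an unadjusted p under 0.05, and with voom on recovered reads 8 members did and 0 passed the adjusted threshold. Leaving out 1 library gave 6 (without Control 8) to 20 (without HLU 8) members lower and 8 without Control 4, Control 6 or HLU 7, with 0 higher each time. The share of all features lower moved too, from 2.77% (without HLU 7) to 8.16% (without HLU 2). It was 3.58% without Control 8, against 6.38% of members, and 6.81% without HLU 8, against 21.3% of members. Without the 5 libraries in which Snora21 stood apart, 10 members (10.6%) were lower and 0 higher, and the median log2 fold change was -0.31. Over all features 9.23% were then lower and 2.64% higher, with a median of -0.16, so the share of members lower was near that of all features.

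**Figure D2:**
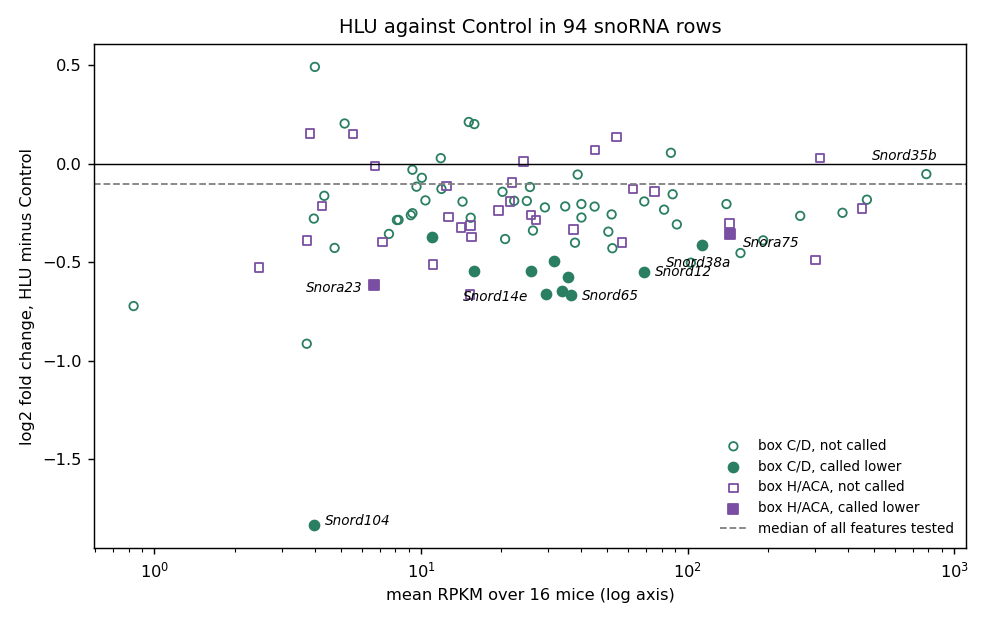
Log2 fold change (HLU minus Control) of each of the 94 snoRNAs against its mean RPKM over 16 mice (log axis), with filled symbols for the 13 called lower at the unadjusted threshold and a dashed line at the median of all features (-0.10). Most points lie below 0, and 12 lie above it.

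Part of the shift was shared by all features and moved with the scaling. Rescaled by the median of ratios, the median log2 fold change was -0.02 for all features and -0.17 for members, and by reads on listed features outside the mitochondrial genome 0.01 and -0.15. The members thus lay 0.15 to 0.16 below the median of all features under RPKM as deposited and both rescalings. The number of members lower was 7 and 6 under these rescalings, and the calls over all features were then 376 higher against 401 lower and 393 higher against 380 lower, whereas RPKM as deposited gave 188 higher against 808 lower. Reads outside listed features took 11.2 ± 4.28% of the divisor in Control and 15.04 ± 5.29% in HLU (SD, n = 8). Summed over erythroid markers, the median was 3986 RPKM in Control (3189 to 8939) and 2774 RPKM in HLU (1780 to 4669). With erythroid and granulocyte scores in the fit 11 members (11.7%) were lower and 4 (4.26%) higher. Over all features 9.27% were lower and 5.51% higher in that fit, shares near those of the members. In that fit the median log2 fold change was -0.15 for members and -0.04 for all features, and 64 of 94 members were negative. Under quantile normalization 72 of 94 were negative. The part of blood cells and of reads outside listed features in the shift of the members was not tested beyond these fits.

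Summed over members, reads per 10000 reads of the divisor were 6.92 ± 1.01 in Control (5.95 to 8.59) and 5.92 ± 0.879 in HLU (4.53 to 7.15, SD, n = 8). In bulk bone, fewer cells of a type that holds more of an RNA and less of that RNA per cell cannot be told apart.

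Snord14e, in an intron of Hspa8 (a constitutive chaperone of the heat shock protein family), had the lowest p. The 8 Control values were 29.9, 42.4, 35.5, 33.2, 43.8, 28.4, 46.3 and 29.7 RPKM, and the 8 HLU values were 23.96, 23.7, 22.4, 21.7, 28.4, 25.5, 13.3 and 24.1 RPKM. Every HLU mouse was below every Control mouse, with the highest HLU value (28.35) just under the lowest Control value (28.41). The log2 fold change was -0.66 ± 0.15 (SE), with an unadjusted p of 0.000398 and an exact permutation p of 0.000155, the smallest that 12870 splits allow. Its adjusted p was 0.744, so it did not pass correction over all features. On RPKM as deposited, it was the 1 member of 94 whose groups did not overlap. The gap is narrow, and the highest HLU value (HLU 5) rests on 20 reads. Rescaling to listed reads divides the lowest Control value (Control 6) by 1.065 and that of HLU 5 by 1.043, so the groups then overlap. Among all features tested, 0.0177% had every HLU mouse below every Control mouse (3 of 16973) and 0.0118% had every HLU mouse above. Snord14e was called under all 29 alternatives, with log2 fold changes of -0.71 to -0.53. Hspa8 itself was lower (log2 fold change -0.43 ± 0.17, unadjusted p = 0.0221). An annotated Hspa8 exon overlaps Snord14e.

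Snord65 lies in the noncoding gene 2410006H16Rik. Its Control values were 25.4, 33.4, 41.4, 31.5, 45.8, 65.8, 55.2 and 64.4 RPKM, and its HLU values 17.8, 32.1, 23.6, 26.3, 28.4, 31.2, 29.4 and 32.0 RPKM. All 8 HLU mice were below the Control median (43.6), and 6 Control mice were above every HLU mouse, although the ranges overlapped. The log2 fold change was -0.66 ± 0.20 (unadjusted p = 0.00354, exact permutation p = 0.00622). The other 2 members of that gene, Snord49a and Snord49b, were not called, and log2 fold changes over the 3 members ran from -0.66 to -0.19.

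Snord12 lies in the noncoding gene Zfas1, listed here as 1500012F01Rik. It ran from 53.4 to 113.3 RPKM in Control (median 74.4) and from 39.4 to 68.7 RPKM in HLU (median 60.7), and all 8 HLU mice were below the Control median. The log2 fold change was -0.55 ± 0.17 (unadjusted p = 0.00577, exact permutation p = 0.00948), and it was called under all 29 alternatives, with values of -0.65 to -0.31.

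**Figure D3:**
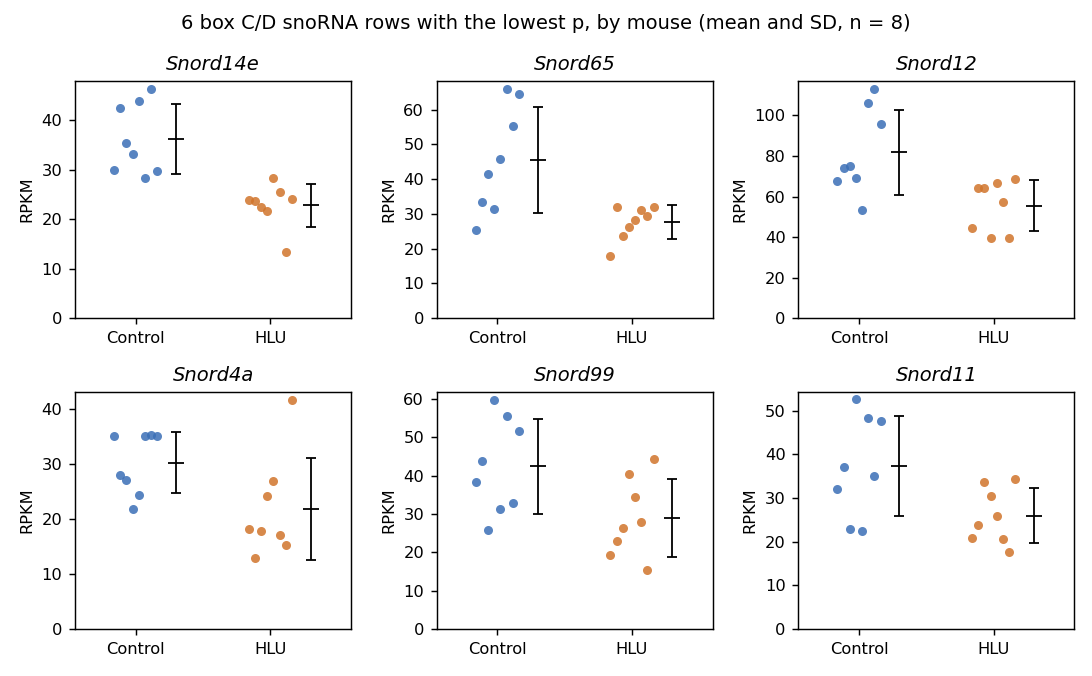
RPKM of the 6 box C/D snoRNAs with the lowest p in 8 Control and 8 HLU mice, with the mean and SD of each group. The groups separate for Snord14e and overlap for the other 5.

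Snord4a, in the ribosomal protein gene Rpl23a, ran from 21.9 to 35.2 RPKM in Control (median 31.5) and from 12.9 to 41.7 RPKM in HLU (median 17.9). The highest value of all 16 was an HLU mouse, and 5 of 8 HLU mice were below every Control mouse (log2 fold change -0.55 ± 0.20, exact permutation p = 0.0241). Snord99, in Snhg12, a noncoding gene that hosts several snoRNAs, had medians of 41.2 RPKM in Control (25.9 to 59.7) and 27.1 RPKM in HLU (15.5 to 44.4), with an exact permutation p of 0.0312. Snord11, in the gene of the box C/D core protein Nop58, had medians of 36.1 RPKM in Control (22.5 to 52.6) and 24.9 RPKM in HLU (17.7 to 34.4), with an exact permutation p of 0.0345. In each of these 3 the ranges overlapped. Without the 5 libraries in which Snora21 stood apart, none of these 3 was called.

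Both box H/ACA members that were called were near the threshold. Snora23, in the importin gene Ipo7, ran from 4.61 to 14.9 RPKM in Control (median 7.59) and from 2.79 to 8.32 RPKM in HLU (median 5.28), with an exact permutation p of 0.0497. Snora75, the U23 snoRNA in Ncl, ran from 99.96 to 221.8 RPKM in Control (median 169.9) and from 94.95 to 155.6 RPKM in HLU (median 133.1), with an exact permutation p of 0.0569. Snora75 was no longer called under 22 of the 29 alternatives and Snora23 under 11.

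The remaining 5 called members had unadjusted p values of 0.0365 to 0.0491. Snord1a in 1810032O08Rik had medians of 12.5 RPKM in Control and 9.99 RPKM in HLU, and Snord21 in Rpl5 18.4 and 11.9 RPKM. Snord72 in Rpl37 had medians of 40.2 and 29.5 RPKM, and Snord38a 127.4 and 97.8 RPKM. Snord104, which lies in no annotated intron on its strand, had a mean of only 4.12 reads and was listed at 0 in 2 HLU mice, so its log2 fold change of -1.83 ± 0.83 depends on the pseudocount. Medians were 4.15 RPKM in Control (2.17 to 12.7) and 2.73 RPKM in HLU (0 to 6.95). These 5 lost the call under 12 to 20 of the 29 alternatives each, all with a negative sign.

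Most of the 8 leading members of each box were not called, the exceptions being Snord38a and Snora75. Log2 fold changes were -0.18 ± 0.18 for Snord15a, -0.25 ± 0.22 for Snord95, -0.23 ± 0.16 for Snora41 and -0.49 ± 0.38 for Snora69. Snora7a was at 0.03 ± 0.31. The sign changed under at least 1 other setting for Snord35b, Snora7a, Snord95, Snord15b, Snord96a, Snora20, Snora28 and Snora52. Of the 12 members above 0, none had an unadjusted p under 0.05. The highest was Snord1c with 0.49, a member with a mean of 4.88 reads. Its group means were 4.03 RPKM in Control and 3.96 RPKM in HLU, so they do not show it higher after HLU. Control 2 had 0 reads, which enter the log2 fold change through the pseudocount.

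By host, 4 of the 30 members in ribosomal protein genes were called lower (median log2 fold change -0.32), 0 of 6 in translation factor genes (median -0.09), 4 of 33 in other protein-coding genes (median -0.20) and 4 of 23 in noncoding genes (median -0.29). Of the 61 host genes themselves, 11 (18.03%) were lower and 0 higher on RPKM as deposited. Of the 61, 60 had a negative log2 fold change, with a median of -0.23. Hosts were not counted again under the rescalings, which lowered the counts of members and of all features. Over all features tested 4.76% were lower and 67.9% had a negative log2 fold change. For 4 of the 12 called members with a measured host the host was also called lower (Hspa8, 2410006H16Rik, 1500012F01Rik and Snhg12). Members and host exons that overlap share reads, so these are not independent.

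The proteins that build snoRNA particles were examined as a list of 21 genes. Ruvbl2 was not listed in the files under that symbol, and the other 20 passed the minimum. Of these, 4 were lower at the unadjusted threshold, 0 were higher, and 18 had a negative log2 fold change (median -0.27). Over all features tested 4.76% were lower and 67.9% negative, and under each of the 3 rescalings (median of ratios, quantile normalization and reads on listed features) 1 of the 20 was lower. Among the box H/ACA core proteins Gar1 was lower, at 5.58 RPKM in Control and 4.19 RPKM in HLU (log2 fold change -0.42 ± 0.13, unadjusted p = 0.00534). Dkc1 (dyskerin), Nop10 and Nhp2 had log2 fold changes of -0.32, -0.19 and -0.39 and were not called. Among the box C/D core proteins Nop56 was lower (-0.35 ± 0.16, unadjusted p = 0.0490), whereas Nop58 (-0.31) and the methyltransferase fibrillarin (Fbl, -0.28) were not called. Nhp2l1, the protein that first binds the C and D boxes, had a log2 fold change of -0.26 ± 0.09 with an unadjusted p of 0.0138 and fell short of 1.2-fold. Of 12 assembly and maturation factors, Ruvbl1, an ATPase of the assembly complex, and Shq1, a chaperone of dyskerin, were lower (-0.35 and -0.42). Rpap3 (0.09) and Znhit3 (0.00) were not. None passed the adjusted threshold, the lowest adjusted p being 0.744. The number lower was 7 without HLU 2 and also without the 5 libraries, and 2 without any 1 of Control 6, Control 7, HLU 1, HLU 6 and HLU 7. The share of all features lower was 8.16% without HLU 2 and 9.23% without the 5 libraries. It was 2.77% to 3.23% in the settings that gave 2.

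The spread between mice was wide for many members. The median coefficient of variation over the 16 mice was 37.3% in box C/D and 35.3% in box H/ACA members, and 30.6% over all features tested, and 18 members were above 50%. Snord37, in the elongation factor gene Eef2, had the widest range among members with a mean of at least 10 reads and no value at 0. It ran from 2.38 to 108.2 RPKM in Control and from 0.956 to 63.6 RPKM in HLU, a 113-fold range. The lowest value, in HLU 4, rested on 1 read and that of Control 1 on 3 reads, so the size of this range is coarse. Control 3, 5 and 7 were high (73.3, 89.5 and 108.2 RPKM), and Control 1, Control 4 and HLU 4 were low (2.38, 7.47 and 0.956 RPKM). The 4 snoRNAs in introns of the ribosomal protein gene Rpl13a also had wide ranges. Snord34 ran from 12.2 to 212.6 RPKM, Snord35a from 16.3 to 209.5 RPKM, Snord32a from 20.6 to 151.4 RPKM and Snord33 from 0 to 39.7 RPKM. In each of the 4 the highest value was in Control 7, and in all but Snord33 the lowest was in HLU 4. Rpl13a itself ran from 10.4 to 54.6 RPKM, with HLU 4 the lowest and Control 7 the highest. Although the 4 lie in introns of 1 gene, their mean levels differed 9.60-fold, and log2 fold changes ran from -0.26 to -0.16.

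A further comparison asked whether members vary with their host genes across mice. It took the 74 members with a mean of at least 10 reads and a measured host, left out Snora21 for the step between the 5 libraries and the rest, and used log2 values centred on the group mean, so that the difference between HLU and Control did not enter. Pearson's r with the own host was positive in 71 of 74 pairs, with a median of 0.67. The median r with the 60 other hosts had a median of 0.21 over members. The adjusted p was under 0.05 with a positive r in 45 pairs (29 of 50 box C/D and 16 of 24 box H/ACA), of which 43 also passed by Spearman's rho. In 44 of the 45, r was at least 0.4 after the 2 mice farthest from the host's median had been left out. The own host ranked first of the 61 hosts for 19 members and among the first 5 for 33. Without the 5 libraries in which Snora21 stood apart, 53 of the 74 pairs passed. Pairs that share a host, reads or library depth are not independent of each other. An exon of another gene, often the host, overlaps 49 of the 94 members on the same strand. There a member and its own host can share reads, which raises r with the own host only. The r with own hosts and with other hosts are thus not a like comparison. Pairs with such an overlap were not tested apart.

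**Figure D4:**
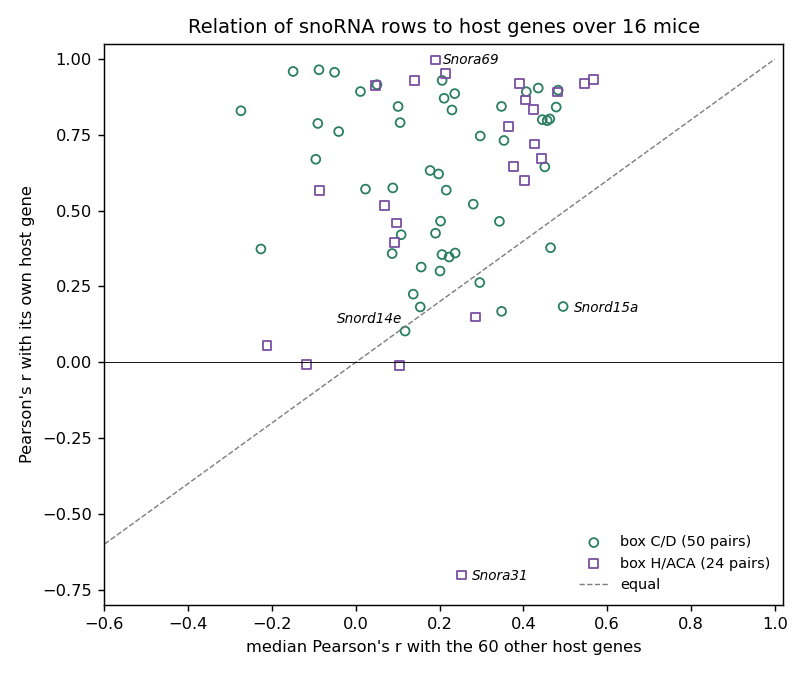
Pearson's r of each of 74 snoRNAs with its own host gene (vertical axis) against its median r with the 60 other host genes (horizontal axis), over 16 mice with values centred by group. Most points lie above the line of equality, and Snora31 lies far below it.

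Snora69 and Rpl39 were the closest pair. Snora69 was 2.94 to 3.63 times the level of Rpl39 in every mouse, while Rpl39 itself ranged from 31.0 to 154.7 RPKM. The r was 1.00 and rho 0.99 (permutation p = 1e-05 for each, the smallest that 100000 resamples can give, adjusted p = 8.22e-05 and 0.000123), with an r of 1.00 without the 2 farthest mice. Both genes were lower in the 5 libraries in which Snora21 stood apart (Snora69 at 94.8 to 170.8 RPKM, against 217.4 to 534.4 RPKM in the other 11), and r was 0.99 within the 11. In GENCODE M21 no exon of another gene overlaps Snora69 on its strand. The annotation behind the deposited values is not given, however. Whether the same reads were counted for both Snora69 and Rpl39 was not tested. Snord34 with Rpl13a gave an r of 0.97 and a rho of 0.93 (permutation p = 1e-05 each, adjusted p = 8.22e-05 and 0.000123), and 0.92 without the 2 farthest mice. Snord37 with Eef2 gave an r of 0.96 and a rho of 0.95 (permutation p = 2e-05 each, adjusted p = 0.000135 and 0.000211), and 0.95 without them. The ratio of Snord37 to Eef2 was not fixed and ran from 0.0156 (HLU 4, on 1 read) to 0.342. Control 4, with 8 reads, had a ratio of 0.0855, and Control 5, with 106 reads, one of 0.342. Snord37 thus changed by more than its host, by an amount that low counts leave coarse. In each of these 3 pairs the own host ranked first of 61.

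Snord15a and Snord15b lie in introns of 1 gene. Snord15b followed Rps3 with an r of 0.92 and a rho of 0.77 (permutation p = 2e-05 for r, adjusted p = 0.00316 for rho, r = 0.84 without the 2 farthest mice). Snord15a had an r of 0.18 and a rho of 0.27 (adjusted p = 0.565 and 0.356 by permutation). Whether these relations differ was not tested. Snord14e, with the lowest p of the HLU comparison, had an r of 0.18 and a rho of 0.23 with Hspa8 within groups (adjusted p = 0.577 and 0.447 by permutation). Snora31 was the 1 member with a negative r past the threshold, -0.70 with Tpt1 (rho -0.69, adjusted p = 0.0136 and 0.0173 by permutation). This relation rests on few mice, since r was -0.49 without the 2 farthest and no longer passed, and it was -0.45 without the 5 libraries. Tpt1 was listed at only 2.18 to 6.2 RPKM.

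**Figure D5:**
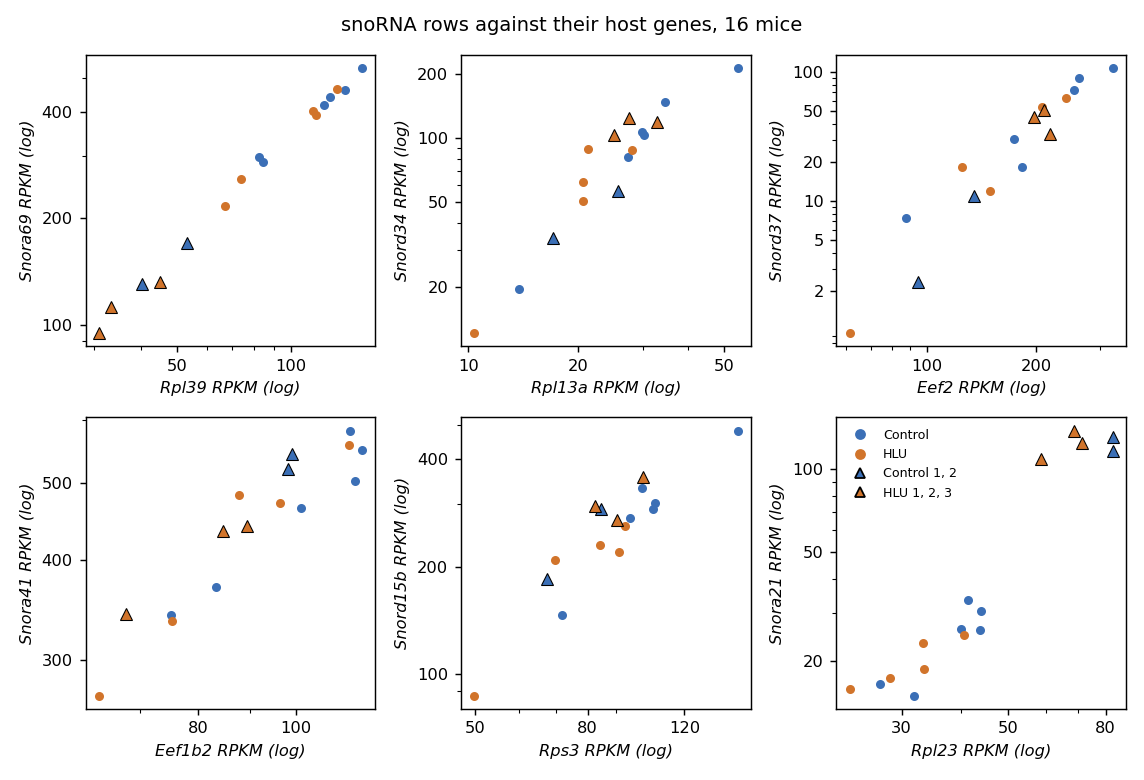
RPKM of 6 snoRNAs against RPKM of their host genes (log axes) in 16 mice, with triangles for Control 1, Control 2, HLU 1, HLU 2 and HLU 3. Snora69 keeps to 1 line with Rpl39, whereas Snora21 sits higher relative to Rpl23 in the 5 libraries drawn as triangles.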

How the data were processed

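Femoral cortical bone RNA was isolated with Trizol and the PureLink kit, made into TruSeq v2 libraries, sequenced 8 per lane and aligned with TopHat2 by the authors. The deposited values are RPKM per feature and mouse, 1 file per mouse, with no pooling. The submitters' processing notes name mm9. The annotation and counting tool are not given in the sources used here.

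Groups came from the sample titles. A feature was tested if its RPKM averaged 0.5 or more over the 16 mice. The comparison of HLU with Control used log2(RPKM + 0.1) and limma 3.58.1 (R 4.3.3, moderated along the abundance trend, two-sided, Benjamini-Hochberg over all 16973 features). The added pseudocount understates changes of low features that are above 0 in every mouse. Where a feature is at 0 in some mice, the pseudocount sets those log2 values and can also enlarge the change, as for Snord104. A feature was called at an unadjusted p under 0.05, or at an adjusted p under 0.1, with at least 1.2-fold change. For single members an exact permutation test, two-sided, went through all 12870 splits of the mice. Host relations used Pearson's r and Spearman's rho with 100000 permutations within groups, adjusted over 74 pairs (scipy 1.17.1, numpy 2.4.6, pandas 2.3.3, Python 3.11.15). Plots were drawn with matplotlib 3.10.9.

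Whole reads were recovered from the RPKM steps for 16973 of 16973 features kept (100% within 0.02 of a whole read), and voom was run on them as an alternative. Limits set by reads cover counting error only. Both the recovery and limma were tested on simulated data. The simulation for limma drew each value independently and held neither the clusters of libraries nor the shared shift seen here, so it does not cover these. Positions, hosts and sequences are those of GENCODE M21 on GRCm38, matched by symbol (103 of 103 rows), and older host symbols were matched through RefSeq synonyms. Lengths in the files equal those of GENCODE for 93 of 94 members. Positions were not converted to mm9.

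Named were the 8 highest members of each box by RPKM, the 5 highest by reads, every called member, members next to the minimum, members of shared hosts, hosts, and the particle proteins. Snord37, Snora21, Snora31 and the 5 libraries shown with them were picked after looking at their values. The members, lists and rules were chosen with earlier results of these data known. The titles number the mice from 1 to 8 in both groups, but the correlation of deviations between same-numbered mice ran from -0.17 to 0.51, so the numbers were not taken to pair mice. Where nothing says how mice were housed or processed together, p-values measure the spread between these 16 libraries. Muscle markers were not analysed here, since 0 of 7 were listed in the files used, and 7 of 10 granulocyte markers were.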

Additional observations from a re-analysis of the deposited data

Results flagged for a closer look

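In 74 groups of 8 mice (the members named in the text, in Control and in HLU), 2 groups held a value that stood far from the nearest of the others by Dixon's ratio. Chance flags about 1 in 20 such groups. HLU 7 was the lowest HLU mouse for Snord14e at 13.3 RPKM, with the next at 21.7 RPKM (ratio 0.56). Control 8 was the highest Control mouse for Snord104 at 12.7 RPKM, with the next at 7.10 RPKM (ratio 0.53), on a mean of 4.12 reads. Without HLU 7, Snord14e was still called.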

How the results depend on the processing

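The HLU comparison was repeated under 29 other settings, of which 11 were planned and 18 were added with the data in view. Of the 13 members called lower, all 13 kept a negative log2 fold change under every setting and 2 (Snord14e and Snord12) were called under every setting. Medians of both boxes stayed negative. That of box C/D was nearest to 0 with the blood cell scores (-0.13) and under quantile normalization (-0.14), and that of box H/ACA under quantile normalization (-0.14). Members lower numbered 7 after median-of-ratios rescaling, 5 after quantile normalization, 8 with voom and 6 after rescaling to listed reads. Of these, box C/D gave 7, 5, 7 and 6, and box H/ACA 0, 0, 1 and 0. Box H/ACA gave 1 with a pseudocount of 1, with no filter, with a mean of at least 2 RPKM, without the trend and without the 5 libraries. With erythroid and granulocyte scores 4 members were higher (Snora64, Snora7a, Snord35a and Snord37), and all features gave 936 higher against 1574 lower. All features gave 376 higher and 401 lower after median-of-ratios rescaling, 460 and 364 after quantile normalization, and 393 and 380 after rescaling to listed reads. Without the 5 libraries they gave 448 and 1566, and the number higher was 391 with no filter, 106 with a mean of at least 2 RPKM and 108 without the 2 smallest libraries. Particle proteins called lower numbered 2 with a pseudocount of 1, 1 under each of the 3 rescalings and 7 without the 5 libraries. The cause of these differences was not tested.

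With the replicate block 18 members were lower, 12 of them shared with the 13 of the fit without it, and particle proteins lower numbered 2. Only 1 of 8 Control mice correlated best with the HLU mouse of its number.

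Leaving out 1 library gave 6 (without Control 8) to 20 (without HLU 8) members lower, 0 higher throughout, with 8 also without Control 4, Control 6 or HLU 7. Box C/D gave 6 to 14 and box H/ACA 0 to 6. All features gave 471 to 1385 lower and 117 to 363 higher, and particle proteins 2 to 7. Medians ran from -0.32 to -0.22 in box C/D and from -0.31 to -0.20 in box H/ACA.

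Of single members, none of them called in the main comparison, the sign of the log2 fold change turned as follows. With the blood cell scores, log2 fold changes were 0.11 for Snora52, 0.14 for Snord95, 0.18 for Snord15b, 0.48 for Snord68 and 0.39 for Snord96a. Without the 5 libraries they were 0.053 for Snora20, 0.086 for Snora28 and -0.38 for Snora7a. For Snord14e, which was called, it was the r with Hspa8 that turned, to -0.044 without the 5 libraries. Quantile normalization gave 0.0024 for Snora28 and 0.020 for Snord35b. Snord35b was at 0.034 after median-of-ratios rescaling, 0.056 without the 2 smallest libraries and 0.063 after rescaling to listed reads, and -0.15 to 0.046 with 1 library left out. Snora7a was at -0.056 without the 2 smallest libraries and -0.12 to 0.26 with 1 library left out.

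Host pairs past the threshold numbered 50 of 74 without centring, 43 of 59 at a mean of at least 20 reads, 38 of 74 without the 2 farthest mice of each pair and 53 of 74 without the 5 libraries. Depth limits 12 members with a mean under 10 reads, for which 1 read moves a value by a large share.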
